A study of Mus musculus with 6 samples.

Results

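Snph, Ncs1, Fat3 and Tceal5 are best known from neurons, and in the tibialis anterior (TA) muscle, a fast-twitch muscle of the lower leg, all 4 had lower mRNA levels in NS-DADm mice than in WT mice. They were chosen by name, because they are lower in the mutant muscle, and make up 4 of the 709 genes with deposited values. The deposited table holds only genes that the authors called as changed between the genotypes. The difference between genotypes was therefore what selected these genes, and it is described here without a test. RNA-seq libraries were made from the TA of 3 WT mice and 3 NS-DADm mice, all of strain C57BL/6 by their labels (C57BL/6 J in the methods of the study) and 21 weeks old, with 1 library per mouse. NS-DADm mice carry knock-in point mutations in the deacetylase-activating domains of nuclear receptor corepressors, which abolish the deacetylase activity of HDAC3. The mutations are whole-body, so the nerves, vessels and other tissues of these mice carry them as well as the muscle fibers. Bulk muscle RNA mixes all cells of the tissue, and fewer cells of a type cannot be told apart from less RNA per cell.

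Neurons and muscle fibers share much of the machinery that positions mitochondria, senses calcium and shapes actin, and genes named after one tissue are often used in the other. Syntaphilin (Snph) anchors mitochondria to microtubules in axons. Neuronal calcium sensor 1 (Ncs1) is a small EF-hand protein that binds calcium and acts on phosphatidylinositol 4-kinase and on calcium release channels. Fat3 is a giant atypical cadherin that organizes cell shape and actin in retinal neurons, and Tceal5 belongs to the TCEAL family of small proteins named for their likeness to transcription elongation factor TFIIS. These corepressors are recruited to DNA by nuclear receptors and other transcription factors, and HDAC3 is the deacetylase of the complex.

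The sequences just upstream of the RefSeq starts of the 4 genes are shown because all 4 genes were lower in the mutant, and because the corepressors that carry the mutations act at regulatory DNA. RefSeq (GRCm38.p6) gave a promoter entry for 4 of 4 genes, and the 250 bases before the annotated start are printed 5′ to 3′ on the strand of the gene. The Snph window is chr2:151632594-151632843 (minus strand), the Ncs1 window chr2:31245673-31245922 (plus strand), the Fat3 window chr9:16502055-16502304 (minus strand) and the Tceal5 window chrX:136203885-136204134 (minus strand). For Tceal5, which has 3 entries in the table, the start nearest to that of GENCODE M21 was used. The RefSeq start of Ncs1 lay 100 bp inside the GENCODE locus given below, so its window runs into that locus. The RefSeq start of Fat3 lay 769 bp upstream of its GENCODE start. The capitals mark every match, on either strand, to 1 of the motifs searched. AGGTCA is the core site that many nuclear receptors bind. The myogenic E-box, which MyoD and its relatives bind, was searched as CAGCTG. A second kind of E-box, bound by other helix-loop-helix factors, reads CACGTG. The GC box of Sp1 and related factors was searched as GGGCGG. The core promoter element known as the TATA box was taken as TATAAA. The left part of RE1, the site of the neuronal gene repressor REST, was searched as TTCAGCACC.
Snph: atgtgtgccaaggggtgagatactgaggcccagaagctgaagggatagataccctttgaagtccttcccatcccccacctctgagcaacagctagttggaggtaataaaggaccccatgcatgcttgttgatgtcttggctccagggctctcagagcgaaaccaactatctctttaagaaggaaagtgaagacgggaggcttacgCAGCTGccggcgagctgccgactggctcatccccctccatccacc
Ncs1: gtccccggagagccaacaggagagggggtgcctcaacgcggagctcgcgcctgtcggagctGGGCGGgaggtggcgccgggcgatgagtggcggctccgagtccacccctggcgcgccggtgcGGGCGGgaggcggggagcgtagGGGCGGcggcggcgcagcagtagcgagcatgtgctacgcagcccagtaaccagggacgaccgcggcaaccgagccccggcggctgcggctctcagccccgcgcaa
Fat3: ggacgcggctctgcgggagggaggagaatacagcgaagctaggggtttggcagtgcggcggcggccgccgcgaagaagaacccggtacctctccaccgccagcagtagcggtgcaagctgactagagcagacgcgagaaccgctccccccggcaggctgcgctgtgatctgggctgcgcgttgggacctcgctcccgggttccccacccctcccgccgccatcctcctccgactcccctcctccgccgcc
Tceal5: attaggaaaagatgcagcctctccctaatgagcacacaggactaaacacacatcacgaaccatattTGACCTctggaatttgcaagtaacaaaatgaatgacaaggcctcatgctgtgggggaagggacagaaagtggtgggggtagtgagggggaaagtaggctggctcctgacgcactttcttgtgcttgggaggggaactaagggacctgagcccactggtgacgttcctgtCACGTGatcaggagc

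The 4 upstream regions did not share a motif of this set. Snph held 1 CAGCTG, at bases -45 to -40 from the start, a motif found in 13% of the 32851 promoters of the table. Tceal5 held 1 AGGTCA, at -184 to -179 on the opposite strand, against 14.0% of all promoters, and 1 CACGTG at -15 to -10, against 6.02%. Ncs1 held 3 GC boxes, against at least 1 match in 32.7% of all promoters. Fat3 held none of the motifs. The left part of RE1 matched in 0 of the 4 genes and in 0.301% of all promoters. TATAAA, found in 12.4% of all promoters, also matched in none of the 4. The base composition separated the genes into pairs. The windows of Ncs1 and Fat3 were 75.6% and 70.4% G or C, with 34 and 27 CpG dinucleotides, whereas those of Snph and Tceal5 were 54.4% and 51.2% G or C, with 6 and 4 CpG. The median over all promoters was 52.4% G or C. These matches are descriptions of letters in a window and say nothing of whether a factor binds there.

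Snph was close to absent in NS-DADm muscles. Normalized counts are reads scaled by the size factor of each library. For Snph they were 41.7, 57.3 and 20.2 in WT libraries 1 to 3 and 1.06, 2.88 and 0 in NS-DADm libraries 1 to 3. WT 2 was the highest library and WT 3 the lowest of its group, and every WT library was above every NS-DADm library. The means were 39.7 ± 18.7 (SD, n = 3) in WT and 1.31 ± 1.46 (SD, n = 3) in NS-DADm, which is 3.30% of the WT level. Within each library every value was a whole multiple of 1 step, within 0.01 reads, so the values could be read back as reads. The step was inferred from the listed genes, the low values behind it are few, and the reads and their interval rest on it. The Snph values came to 46, 63 and 21 reads in WT and 1, 3 and 0 reads in NS-DADm. The summed reads, 130 against 4, gave a 28.2-fold ratio after scaling by the size factors. Its counting interval ran from 10.8-fold to 105-fold (95% exact interval, counting error only). The ratio of group means was 30.3-fold. With so few reads the size of the fold rested on single libraries. Without NS-DADm 2 it was 75.2-fold, without NS-DADm 3 it was 20.2-fold, and over all 6 libraries left out in turn it stayed between these values. The library with no Snph read allows a level of up to 3.62 normalized counts, the value of 3 reads. On the scale of log2(normalized count + 1), the log2 fold change was -4.23 (limma standard error 0.61), and the added 1 makes this smaller in size than the ratio of means.

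Ncs1 was the steadiest of the 4 genes in WT muscle. Its normalized counts were 121.3, 152 and 136 in WT and 20.1, 17.3 and 33.8 in NS-DADm libraries. The lowest WT library was 3.59-fold above the highest NS-DADm library, NS-DADm 3. The means were 137 ± 15.3 (SD, n = 3) in WT and 23.7 ± 8.84 (SD, n = 3) in NS-DADm, or 17.4% of WT, a log2 fold change of -2.53 (limma standard error 0.26). Ncs1 encodes a sensor of small rises in calcium, and its gene spans 50167 bp on chromosome 2 of GRCm38, from 31245823 to 31295989 on the plus strand.

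Fat3 had nearly the same fold as Ncs1, at a wider spread. Its normalized counts were 87.8, 163 and 145 in WT and 15.8, 17.3 and 36.2 in NS-DADm libraries. As for Ncs1, WT 1 was the lowest WT library and NS-DADm 3 the highest of the mutant libraries, and the groups did not overlap. The means were 132 ± 39.2 (SD, n = 3) in WT and 23.1 ± 11.4 (SD, n = 3) in NS-DADm, or 17.5% of WT, a log2 fold change of -2.51 (limma standard error 0.34). Fat3 is the largest of the 4 loci, at 591097 bp on chromosome 9, from 15910189 to 16501285 on the minus strand, and 99.4% of the lower protein-coding genes of the table have a shorter locus.

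Tceal5 kept the largest share of its WT level. Its normalized counts were 112, 126 and 182 in WT and 34.9, 36.5 and 21.7 in NS-DADm libraries. Here WT 3 was the highest library, and NS-DADm 3 was the lowest rather than the highest of the mutant libraries. The groups did not overlap. The means were 140 ± 36.7 (SD, n = 3) in WT and 31.0 ± 8.10 (SD, n = 3) in NS-DADm, or 22.2% of WT, a log2 fold change of -2.14 (limma standard error 0.26). At 2929 bp on chromosome X, from 136200948 to 136203876 on the minus strand, it is also the shortest locus of the 4, and 4.57% of the lower protein-coding genes have a shorter one. Snph, in contrast, spans 42045 bp of chromosome 2, from 151590549 to 151632593 on the minus strand.

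**Figure D1:**
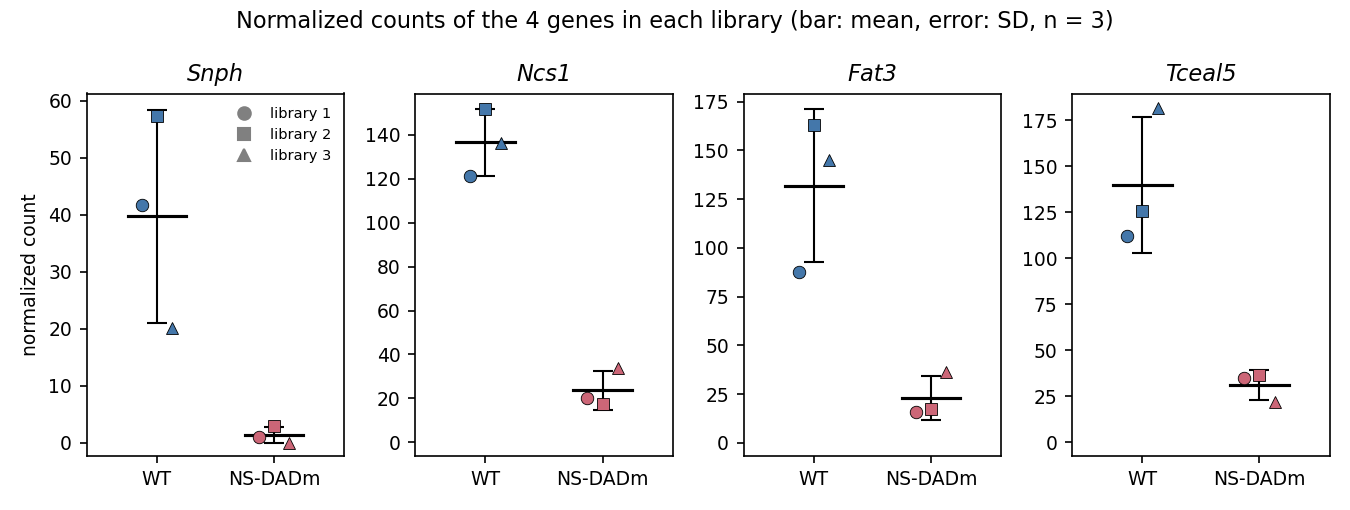
Normalized counts (vertical axes, one scale per gene) of Snph, Ncs1, Fat3 and Tceal5 in 3 WT libraries (blue) and 3 NS-DADm libraries (red), with the group mean as a bar and the SD as the error; marker shapes stand for the library numbers. All WT libraries lie above all NS-DADm libraries in each gene, and the triangle of NS-DADm 3 is the highest mutant value for Ncs1 and Fat3 and the lowest for Snph and Tceal5.

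In 4 of the 4 genes the lowest WT library exceeded the highest NS-DADm library. The same held for 48.4% of all listed genes, and 97.9% had separate groups in either direction. In limma, 49.1% of the listed genes were lower and 50.9% higher in NS-DADm at an adjusted p under 0.05. Nothing is read from the members' count, since all listed genes were selected for this contrast. Among the 348 lower genes, ordered by the ratio of group means, Snph was number 1, Ncs1 number 10, Fat3 number 11 and Tceal5 number 18. The gene after Snph was Gm15446, at 14.4-fold lower, which has similarly few reads (25.3-fold without NS-DADm 3). Ncs1 and Fat3, 5.76-fold and 5.71-fold lower, followed Ak4, a mitochondrial adenylate kinase, at 6.08-fold. Tceal5, 4.51-fold lower, stood between Top2a, a topoisomerase of dividing cells, at 4.6-fold (2.56-fold without WT 2) and Sntb1, a syntrophin, at 4.46-fold. The median over the lower genes was 1.66-fold, and 22 of the 709 genes (3.1%) were at least 4-fold lower.

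**Figure D2:**
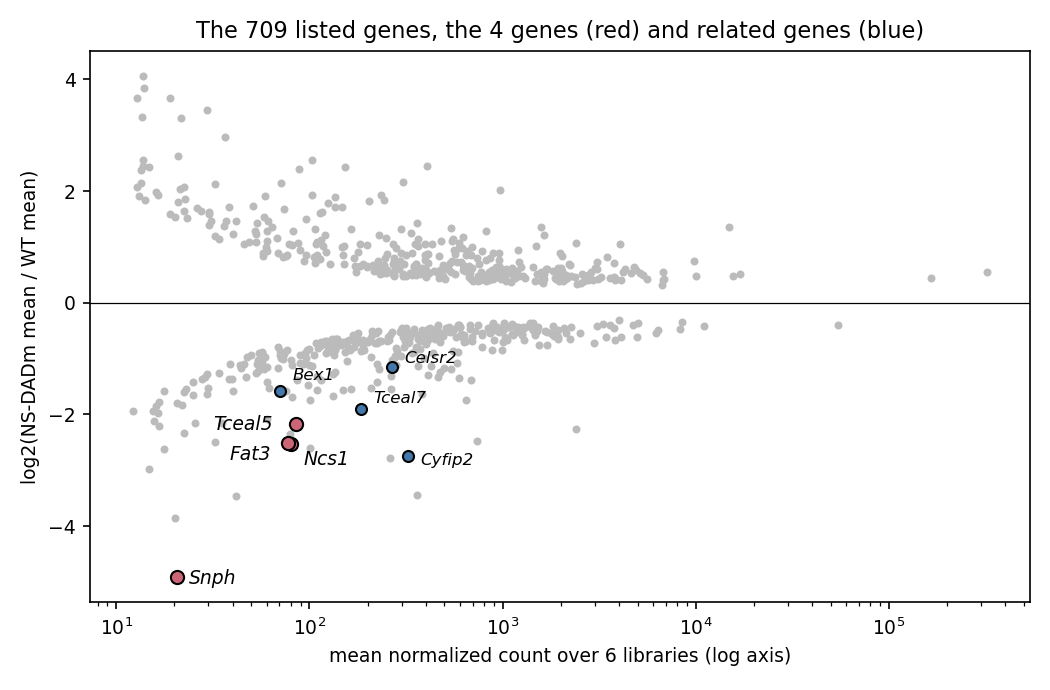
Log2 of the NS-DADm mean over the WT mean (vertical axis) against the mean normalized count over the 6 libraries (horizontal log axis) for the 709 listed genes, each a point. Snph has the lowest ratio of the table, at 0.0330, while Ncs1, Fat3 and Tceal5 sit together at means between 77.5 and 85.4 normalized counts; the blue points are Tceal7, Bex1, Celsr2 and Cyfip2.

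The levels of different genes were compared per kb of exon, since longer transcripts give more reads. In WT muscle Tceal5 had the highest level, at 110.7 ± 29.1 normalized counts per kb (SD, n = 3), followed by Ncs1 at 29.4 ± 3.30 (SD, n = 3). Fat3 and Snph were lowest, at 6.14 ± 1.83 and 5.05 ± 2.37 normalized counts per kb (SD, n = 3 each), and these did not differ beyond their spread. With the length of the longest transcript in place of the union of exons, Snph came ahead of Fat3 in WT, at 8.09 against 7.03 normalized counts per kb. In NS-DADm muscle the levels were 24.6, 5.10, 1.08 and 0.167 normalized counts per kb for Tceal5, Ncs1, Fat3 and Snph, and no library of one gene reached a library of the next. Thus the gene with the most transcript per kb in WT was still the highest in the mutant, whereas Snph, whose WT libraries overlapped those of Fat3, was below it in every NS-DADm library.

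The 4 genes did not all vary in the same way among the 3 mice of each genotype. Ncs1 and Fat3 had the same order of WT libraries and the same highest mutant library, whereas Snph and Tceal5 differed from them. WT 2 was the highest WT library for Snph, Ncs1 and Fat3, and WT 3 the highest for Tceal5. WT 3 held 50.8% of the WT mean of Snph but 130% of that of Tceal5. In the mutant group NS-DADm 3 was 1.81-fold above the mean of the other mutant libraries for Ncs1 and 2.19-fold for Fat3, and stood at 0.609 of that mean for Tceal5. Over all 348 lower genes the median of this ratio was 0.964. It was larger than that of Fat3 in 0.862% of these genes and smaller than that of Tceal5 in 3.16%. NS-DADm 3 was the highest mutant library in 31.0% of the lower genes and the lowest in 44.0%, so its place for Ncs1 and Fat3 was not that of a library that is high throughout.

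The listed genes with the most similar profile were found by the root mean square distance between gene-centred log2(normalized count + 1) values over the 6 libraries, among listed genes averaging 50 or more normalized counts. For Ncs1 these were Stbd1, a glycogen-binding protein (distance 0.154), Gamt, an enzyme of creatine synthesis (0.191), and the imprinted noncoding RNA Rian (0.194). For Fat3 the nearest gene was Ncs1 itself, at 0.225, followed by Stbd1 at 0.298 and Gamt at 0.300. Stbd1 shows the pattern at a higher abundance. Its normalized counts were 1057, 1230 and 1446 in WT and 219.7, 158 and 291 in NS-DADm libraries, with NS-DADm 3 again the highest of the mutants. The genes nearest to Tceal5 were Actc1, the cardiac alpha-actin (0.200), Kcng4, a modifier subunit of voltage-gated potassium channels (0.369), and Panx1, a large-pore channel protein (0.388). Actc1, with 3114, 4030 and 4839 normalized counts in WT and 1140, 839 and 521 in NS-DADm libraries, had the same highest and lowest library as Tceal5 in WT and the same lowest library in NS-DADm. Snph had no close neighbour among these genes. Snph itself averaged 20.5 normalized counts, so genes at its own level were not compared. Its distances also rest on mutant values of 1, 3 and 0 reads. Its nearest genes were the noncoding RNA B230312C02Rik (0.919), Ak4 (1.16) and Actc1 (1.20), and Ncs1 was 1.27 away. These distances are descriptions over 6 libraries that all share the genotype difference.

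**Figure D3:**
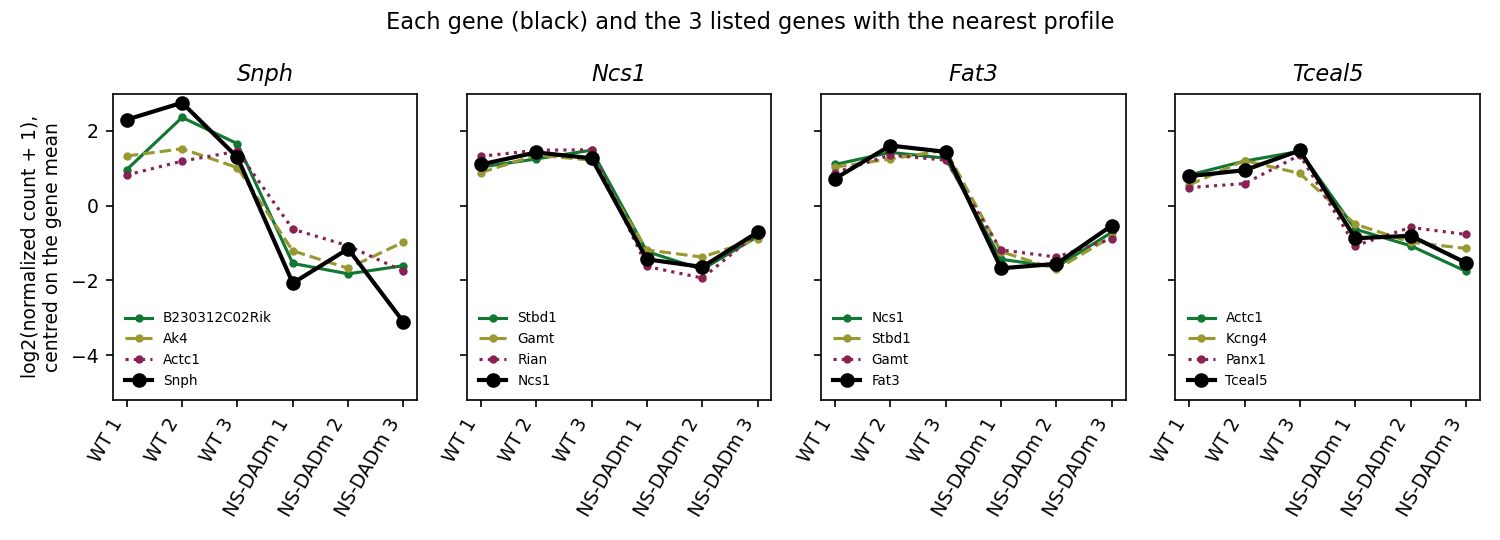
Gene-centred log2(normalized count + 1) (vertical axis) in the 6 libraries (horizontal axis) for Snph, Ncs1, Fat3 and Tceal5 (black) and the 3 listed genes nearest to each (colored lines). The lines for Ncs1 and Fat3 turn up at NS-DADm 3, the line for Tceal5 turns down there, and Snph runs apart from its nearest genes, at distances of 0.919 to 1.20.

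The relatives of each gene were then taken family by family, from lists chosen with earlier results of these data known. Genes outside the table have no value, whether because the authors did not test them or did not call them. For scale, 2.93% of the 21951 protein-coding genes of GENCODE M21 were in the table, and 1.49% were in it as lower. The adjusted p-values below come from limma across the table, and since the authors had called every one of these genes on the same 6 libraries, they are not independent evidence.

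Of the 16 genes other than Tceal5 on the TCEAL, BEX and TFIIS list, 3 were in the table and all 3 were lower. The list was chosen with results known, and Tceal7 and Bex1 overlap on the chromosome. For these reasons nothing is read from this count, beside 1.49% of protein-coding genes listed as lower. Tceal7, a TCEAL family member, had normalized counts of 158, 192 and 522 in WT and 81.3, 75.9 and 76.0 in NS-DADm libraries. WT 3 was high for Tceal7, as it was for Tceal5, and the fold was 3.74 with this library and 2.25 without it (log2 fold change -1.68, standard error 0.35, limma adjusted p = 0.00155). Bex1, a small adaptor-like protein expressed in brain and in regenerating muscle, had 109.6, 111 and 97.0 normalized counts in WT and 34.9, 25.9 and 45.9 in NS-DADm, a 2.98-fold difference with WT 3 the lowest of its group (limma adjusted p = 3.03e-04). Tcea3, a TFIIS elongation factor, is abundant, and its difference was much smaller, at 4095 ± 325 in WT and 3087 ± 123 in NS-DADm (SD, n = 3 each).

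Tceal7 and Bex1 are also the nearest listed genes to Tceal5 on the chromosome. Their starts lie 10.9 kb and 11.6 kb from that of Tceal5 on chromosome X, Tceal7 from 136214779 to 136226100 on the plus strand and Bex1 from 136213972 to 136215513 on the minus strand. The gene bodies of Tceal7 and Bex1 overlap on opposite strands, and 13.5% of the 50-base words of Tceal7 transcripts also occur in Bex1 on the opposite strand. The sources used here do not say whether the counting used strand, so reads from the overlap cannot be assigned with certainty. Within 1 Mb of Tceal5, 2 of 95 other annotated genes (2 of 39 protein-coding genes) were in the table, both lower. Within 2 Mb it was 3 of 135 (3 of 59 protein-coding genes), and the added gene, Armcx4, was 2.36-fold lower. With 2.93% of protein-coding genes in the table, nothing is read from such small numbers.

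Tceal5 also has near copies elsewhere on chromosome X. Of its 50-base transcript words 21.2% occur in Tceal6 and 20.4% in Tceal3, both absent from the table, and 25.4% occur in any other gene. For Snph, Ncs1 and Fat3 the share was 0 of 8081, 4688 and 21473 words. The coding sequences of Tceal5, Tceal6 and Tceal3 are each 600 bases long. An unbroken run of 244 bases, coding bases 183 to 426 of Tceal5, is identical in Tceal6. Reads from that run could have been assigned to either gene or left out, so the assignment of reads to Tceal5 is less certain than that to the other 3 genes. The first 60 coding bases (GENCODE M21, GRCm38) are shown because they tell the copies apart, with capitals at the bases of Tceal6 and Tceal3 that differ from Tceal5, 17 and 18 in number.
Tceal5: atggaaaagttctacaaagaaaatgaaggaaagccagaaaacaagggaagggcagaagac
Tceal6: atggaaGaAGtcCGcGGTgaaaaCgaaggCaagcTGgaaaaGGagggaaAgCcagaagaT
Tceal3: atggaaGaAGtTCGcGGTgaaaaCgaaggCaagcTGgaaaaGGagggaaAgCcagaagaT

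Around the other genes the listed neighbours were few. Only the protein-coding counts can be set beside the 2.93% of protein-coding genes that were in the table, and nothing is read from such small numbers. Within 1 Mb of the start of Ncs1, 1 of 65 other genes (1 of 37 protein-coding genes) was in the table. It was the ubiquitin-specific protease Usp20, which was 1.8-fold lower at 263.5 kb. Within 1 Mb of Snph, 2 of 86 genes (2 of 45 protein-coding genes) were in the table, and they went in opposite directions. Sox12, a SoxC transcription factor, was 2.91-fold lower at 765 kb, and Acss1, a mitochondrial acetyl-CoA synthetase, was higher at 964 kb, with 773 ± 40.8 normalized counts in NS-DADm and 306 ± 23.3 in WT (SD, n = 3 each). Of the 9 genes within 1 Mb of Fat3, 3 of them protein-coding, none was in the table, and within 2 Mb Panx1, named above for its profile, was 3.19-fold lower.

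**Figure D4:**
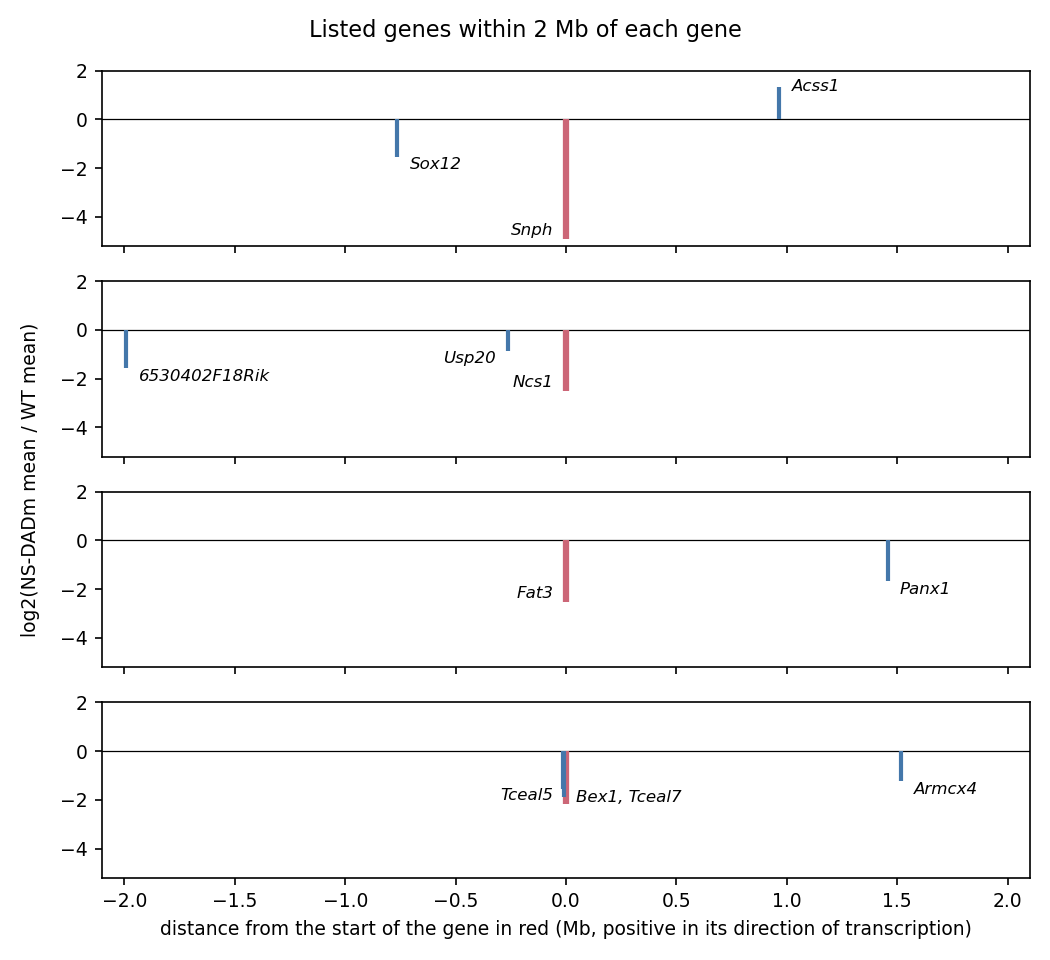
Listed genes within 2 Mb of Snph, Ncs1, Fat3 and Tceal5 (red bars), with the distance between start sites in Mb on the horizontal axis and log2 of the NS-DADm mean over the WT mean on the vertical axis. Tceal7 and Bex1 lie 10.9 and 11.6 kb from Tceal5 and share its direction, while Acss1 near Snph is the one gene that points up.

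Of the 19 genes other than Fat3 on the list of FAT and Dachsous cadherins and planar polarity, 1 was in the table. With 2.93% of protein-coding genes in the table, nothing is read from this count. Celsr2, a seven-pass cadherin of the planar polarity pathway, had 422, 436 and 246 normalized counts in WT and 183, 172 and 142 in NS-DADm libraries, 2.22-fold lower (log2 fold change -1.11, standard error 0.21, limma adjusted p = 0.00104). The intracellular part of Fat3 is known from retinal neurons to bind Ena/VASP proteins and the WAVE complex, which drive actin assembly. Of 14 genes on that list 1 was in the table, and nothing is read from this count either. Cyfip2, a WAVE subunit, was 6.73-fold lower, at 795, 348 and 548 normalized counts in WT and 78.1, 69.2 and 104 in NS-DADm libraries, with no overlap. The other FAT cadherins, Fat1, Fat2 and Fat4, and the Dachsous genes were not listed.

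Listed partners of Ncs1 and calcium release genes went in both directions, while the rest of its family had no values. Of the 12 other genes of the neuronal calcium sensor family, which include hippocalcin, visinin-like and Kv channel-interacting proteins, 0 were listed. On the list of Ncs1 partners and calcium release genes, 5 of 23 were listed, 4 of them higher and 1 lower. Itpr1, an inositol trisphosphate receptor that releases calcium from internal stores, had 402, 482 and 332 normalized counts in WT and 584, 731 and 735 in NS-DADm libraries, 1.68-fold higher (limma adjusted p = 0.00130). Ric8b, a chaperone of G protein alpha subunits, was 1.5-fold higher. Camk2d, a calmodulin-dependent kinase, and Ppp3ca, a catalytic subunit of calcineurin, were both 1.34-fold higher, and Ppp3ca was named after its values were seen. Calm3, 1 of the 3 calmodulin genes, was lower, at 4673 ± 218 in WT and 2937 ± 60.7 in NS-DADm (SD, n = 3 each).

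Snph belongs to the genes that move and dock mitochondria. Of the 27 other genes on that list, which include the Miro and Trak adaptors, kinesin-1 and dynein subunits and the mitofusins, 1 was listed, and with 2.93% of protein-coding genes in the table nothing is read from this count. Klc2, a kinesin light chain, was 1.5-fold lower, at 1648, 1910 and 1718 normalized counts in WT and 1142, 1165 and 1211 in NS-DADm libraries (limma adjusted p = 5.34e-04).

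**Figure D5:**
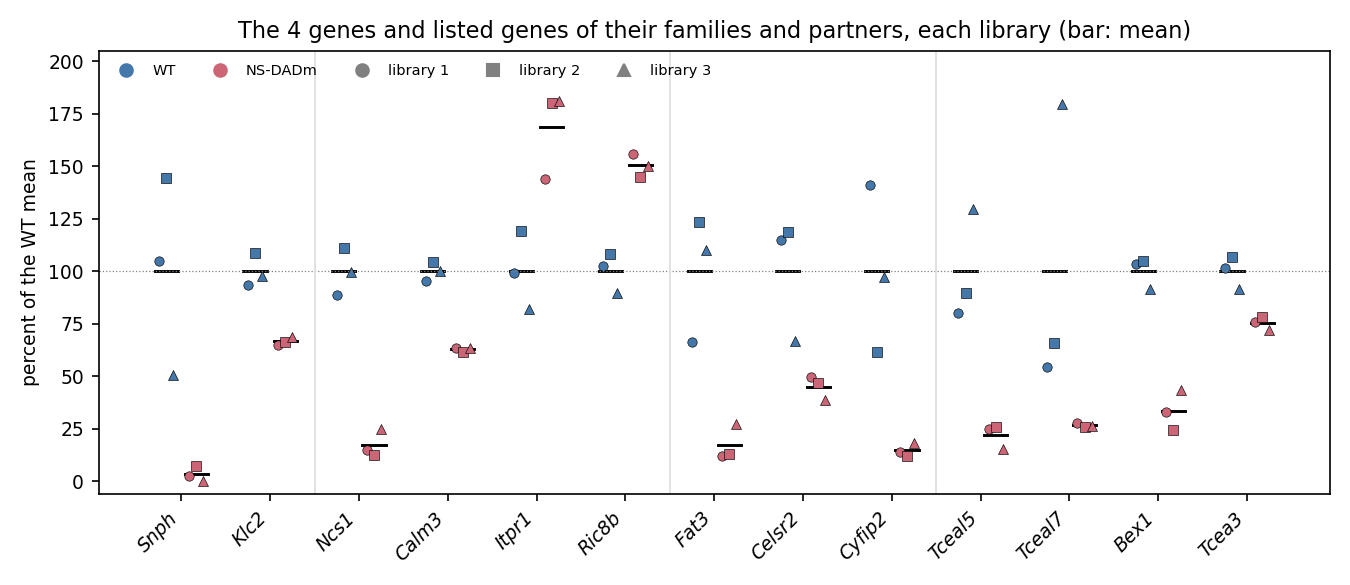
Each library as a percent of the WT mean of the gene (vertical axis) for Snph, Ncs1, Fat3 and Tceal5 and listed genes of their families and partners (horizontal axis), WT in blue and NS-DADm in red, bars at the group means. The mutant means are 3.30%, 17.4%, 17.5% and 22.2% of WT for the 4 genes, Itpr1 and Ric8b lie above WT, and WT 3 (triangle) is high for both Tceal5 and Tceal7.

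The label of the group as neuronal rests on what these genes are known for. On a list of 50 neuron and synapse genes, 0 of the 46 other than the 4 were in the table, among them Tubb3, Map2, Syn1, Snap25 and Syt1. A list of this size says little beside a share of 2.93%, and other genes known from neurons were in the table in both directions. The following were named after their values were seen. Unc5a, a netrin receptor, and Adgrl1, a latrophilin, were 3.10-fold and 2.54-fold lower in NS-DADm. Cntnap2, a neurexin-like protein of axons, and Map6, a microtubule stabilizer, were 1.62-fold and 1.64-fold higher. Some synaptic genes left off the list were also in the table. Syt4, Pclo, Slc6a17, Srcin1 and Syt3 were lower, with log2 fold changes of -2.58, -1.79, -1.52, -1.09 and -0.96. The standard error for Syt4 was 0.90. Rims4, Cacng7, Dnm3 and Kalrn were higher, with log2 fold changes of 0.85, 0.87, 0.84 and 0.53. All these genes are examples picked with their values known. The number in each direction was not counted, so no prevailing direction is read from them. Of 12 motor axon markers, 0 were listed, and of 16 Schwann cell markers, 0. Since an unlisted gene has no value, the amount of nerve in each sample was not measured. Of all 73 marker symbols of other cell types (motor axon, Schwann, satellite, endothelial, macrophage, fibroblast, adipocyte and tendon cells) 1 was listed, the macrophage receptor Mrc1, which was 2.04-fold higher in NS-DADm. Its part in the result was not tested. Of 17 genes that respond to denervation, 3 were listed. Chrna1, the alpha subunit of the acetylcholine receptor, and Runx1 were 1.46-fold and 2.35-fold higher, and Chrnb1, the beta subunit, was 1.56-fold lower. Runx1 averaged 40.4 normalized counts. Of 18 skeletal muscle markers, 3 were listed, with Ttn and Actn3 1.46-fold and 1.36-fold higher and Myl1 1.32-fold lower. With quantile normalization none of these 3 passed the limma threshold. The muscle identity of the samples shows in the abundance of these genes, with 262488 ± 14123 normalized counts of Ttn in WT (SD, n = 3).

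A point mutation would not be seen in a count, so the counts do not check the genotype labels, and Hdac3 was not listed. Of the 15 genes on the list of corepressor subunits, which includes Rest and its partners, 1 was listed. Tbl1xr1, a subunit of the HDAC3 corepressor complex, had 600.3, 581 and 705 normalized counts in WT and 1011, 1295 and 999.4 in NS-DADm libraries, 1.75-fold higher (limma adjusted p = 4.56e-04).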

How the data were processed

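RNA-seq covered the TA of 3 WT mice and 3 NS-DADm mice, and libraries were assigned to genotypes by their labels. The methods of the study name STAR (GRCm38) and DESeq2, whereas the notes given by the submitters list DESeq2 (1.8.2), HTSeq and TopHat2 (2.1.0), so the aligner is unsettled. The authors' deposited values are normalized counts, a signal that is never negative, made by dividing read counts by a size factor per library. 1 read was worth 0.905 to 1.21 normalized counts, and the listed genes took 1047804 to 1411470 reads per library. No source used here states the total depth. The authors' columns of base means, group means, fold changes and p-values were not used.

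Genotypes were compared across the 709 genes on log2(normalized count + 1) in limma 3.58.1 (R 4.3.3), two-sided, with a trended prior variance and Benjamini-Hochberg adjustment. Folds are ratios of group means. The limma comparison was checked on simulated counts that took the inferred value of 1 read as given, so the step itself was not checked there. The simulation changed 200 of the 709 genes at 1 fixed spread, whereas every real gene had been selected as changed. It therefore checks the running of the method and not its error rates on these data. Positions and lengths are from GENCODE M21 (GRCm38, 706 of 709 identifiers matched) and promoters from RefSeq. Members and gene lists were chosen with earlier results of these data known. The genes named besides the members are the 3 nearest in profile to each, up to 4 listed genes of each list with the largest change, all listed genes within 1 Mb, and the neighbours of each member in the order of folds, of which 1 is not reported here. Genes between 1 and 2 Mb away were added. Per the methods of the study, controls were age-matched WT mice, males were used unless stated otherwise, and tissues were taken in the late afternoon from mice with free access to food. The labels give no sex. An exact permutation test of 3 against 3 cannot go below p = 0.1 and was not run.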

Additional observations from a re-analysis of the deposited data

How the results depend on the processing

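The number of genes called by limma was 361 higher and 348 lower, and omitting single libraries gave 358 to 361 higher and 345 to 348 lower. The log2 fold changes were negative under all 50 alternative fits of the 4 genes. This lends no weight to the direction. The genes were chosen as lower in these same libraries, and their groups did not overlap. Leaving out single libraries gave -4.71 to -3.73 for Snph, -2.80 to -2.34 for Ncs1, -2.87 to -2.30 for Fat3 and -2.28 to -1.91 for Tceal5. With a pseudocount of 5 the log2 fold change of Snph became -2.75. Both filters on low values, a mean of at least 50 normalized counts or at least 10 reads on average in each group, removed Snph, which left 1 lower gene of mitochondrial transport and docking in place of 2. The first filter also left 1 higher gene of denervation in place of 2. Quantile normalization left 0 higher and 0 lower skeletal muscle markers, in place of 2 and 1. The number of lower genes near Snph was 0 within 0.5 Mb, near Ncs1 2 within 2 Mb, and near Fat3 1 within 2 Mb, in place of 1, 1 and 0 within 1 Mb. Per kb of the longest transcript, Snph in WT was 8.09 normalized counts. With the replicate block the counts of calls were 361 and 348 and the log2 fold change of each of the 4 genes was the same, but the correlations between deviations of libraries with one number were -0.15, 0.15 and 0.05, which gives no pairing. The planned count models (edgeR and DESeq2) were not run. The deposited table has too few low values per library for the step of 1 read to be checked as those models would need.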
